A study of Homo sapiens with 9 samples.

Results

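The genes of DNA replication and of the S phase of the cell cycle were followed in HT-29 cells, an epithelial line from a human colorectal adenocarcinoma, after stimulation with either of 2 bacterial molecules. The members were the 50 symbols of a fixed list of this machinery, found by symbol in the deposited table of read counts. They matched 51 of the 62,710 gene identifiers there, because POLA2 stands beside 2 identifiers, and all 51 passed the filter on low counts that left 17,412 genes for testing. Messenger RNA was sequenced in 9 libraries of wild-type HT-29 cells, 3 in each group. The cells had received 500 ng/mL ADP-heptose, 500 ng/mL flagellin or no stimulus, and the stimulation lasted 2.5 h. ADP-heptose is a sugar nucleotide of Gram-negative bacteria that is sensed in the cytosol by the kinase ALPK1, and flagellin is the flagellar protein sensed by TLR5. The study compared ADP-heptose with non-stimulated cells to learn what this ligand does to tumor epithelial cells, with flagellin as a second bacterial stimulus. The study describes the values of the 3 groups as coming from 3 independent experiments with 1 cell line. Which libraries share an experiment is not stated, so the main test did not pair them.

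Replication starts at origins that are licensed before S phase: the origin recognition complex, CDC6 and CDT1 load the MCM helicase onto DNA, and CDC45 and the GINS complex then switch it on. The helicase unwinds DNA ahead of the polymerases, the clamp PCNA holds these on their template, and a separate set of enzymes supplies the nucleotides. E2F transcription factors and cyclin E drive the genes of this machinery at the transition into S phase, and the E2F factors E2F7 and E2F8 repress them. Dividing intestinal epithelial cells express the whole set.

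The libraries held 30,770,448 to 58,272,772 counts, with 50,054,773 or more in each ADP-heptose library and 38,304,035 or fewer in each other one, and the members took 0.405% to 0.449% of them. At this depth 49 of the 51 identifiers had at least 100 counts in every library. Of 10 epithelial markers, 8 had a median above 10 CPM (counts scaled to a common library total), whereas the intestinal transcription factors CDX1 and CDX2 had medians of 0 and 0.835 CPM. Summed CPM of these markers ranged from 9033 to 9324 without stimulation, from 9139 to 9439 with flagellin and from 9210 to 11,948 with ADP-heptose. The highest KRT8 and KRT18 values, 5828 and 2608 CPM, were both those of ADP-heptose replicate 3, against medians of 4337 and 1642 over the 9 libraries. Of 11 markers of blood, endothelial and stromal cells, LYZ had a median of 429 CPM, COL1A1 of 15.6 and each other marker less than 1. Their sum was 426 to 454 CPM without stimulation, 455 to 466 with flagellin and 358 to 430 with ADP-heptose. The part of depth and of these marker differences in the results was not tested.

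One library stood apart. ADP-heptose replicate 3 differed from replicates 1 and 2 with SDs of the log2 difference of 0.363 and 0.371 over 11,040 genes, against 0.109 between replicates 1 and 2 and 0.131 to 0.165 within the other groups. The difference followed transcript length. Among genes of at least 100 normalised counts, the median log2 difference between replicate 3 and the mean of the other 2 ADP-heptose libraries was 0.26 for 4580 genes with a longest transcript of up to 3000 bases and −0.13 for 7093 longer genes. Among the members it was 0.24 for 20 shorter ones and 0.02 for 31 longer ones. In this library 14 of the shorter members were above that mean, TK1 among them. So were 19 of the longer ones, such as POLA2, whereas the long E2F2 was low. Where leaving out this library changed a member's call, its value without the library is given.

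**Figure D1:**
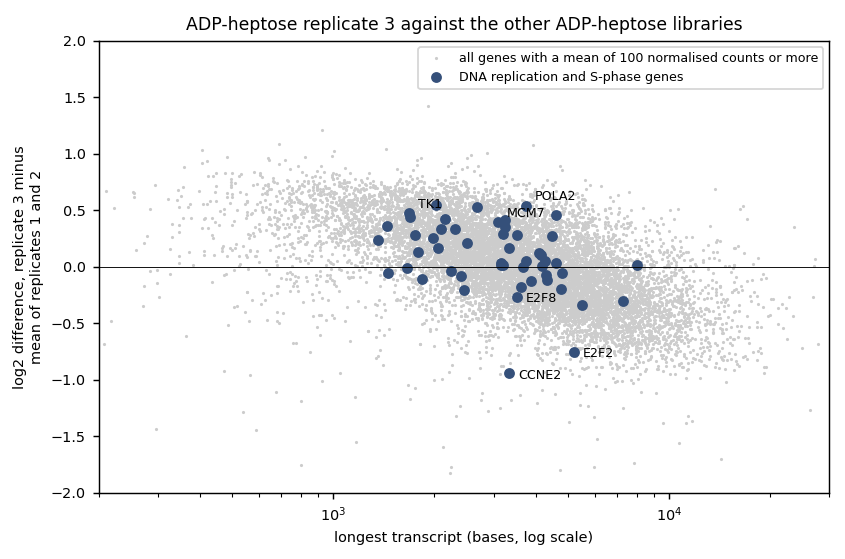
Log2 difference in normalised counts between ADP-heptose replicate 3 and the mean of ADP-heptose replicates 1 and 2 (y axis) against the length of the longest transcript in bases (x axis, log scale). Grey points are all genes with a mean of at least 100 normalised counts and blue points the 51 member identifiers, of which CCNE2 (−0.94) and E2F2 (−0.76) lie lowest. Grey points beyond the drawn axis limits are not shown.

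Levels within the set spanned a wide range. Their CPM were scaled to the effective library size (library total times TMM factor) rather than to the library total. Per length of the longest transcript, the non-stimulated level was highest for MCM7 (183 ± 4.69 CPM per kb, SD, n = 3), TK1 (181 ± 5.77) and PCNA (139 ± 8.18), and the median member stood at 19.2 CPM per kb. MCM7 and TK1 did not differ beyond their spread, and both lay above PCNA. At the low end were E2F2 (1.18 ± 0.139 CPM per kb), CCNE2 (0.726 ± 0.0378) and the second identifier under POLA2 (0.337 ± 0.0882). The genes that moved after stimulation were thus, apart from UHRF1, E2F8 and ORC1 at 14.9, 7.14 and 7.10 CPM per kb, the 3 with the lowest levels.

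With ADP-heptose most of the members stayed near their non-stimulated level, while a few fell. E2F8, E2F2, CCNE2, ORC1 and UHRF1 were lower than in non-stimulated cells and the counts of 1 identifier, AP000944.2 (the second under POLA2, annotated as a read-through transcript that starts there), were higher, each past an adjusted p of 0.05 (edgeR quasi-likelihood F test, Benjamini-Hochberg over 17,412 genes). These were 5 of 51 identifiers called lower (9.80%), where 4.42% of all genes were called lower, and 1 of 51 called higher (1.96%), where 7.48% of all genes were. The median log2 fold change was −0.03 over the members and 0.01 over all genes. The other 45 identifiers lay between −0.23 and 0.39. For 46 of the 51 the 95% confidence interval of the fold change, which is not adjusted for the number of genes, lay inside 1.5-fold in either direction, and for 30 it lay inside 1.25-fold. In RNA from whole cultures, fewer cells in S phase and less RNA of a gene per cell cannot be told apart.

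**Figure D2:**
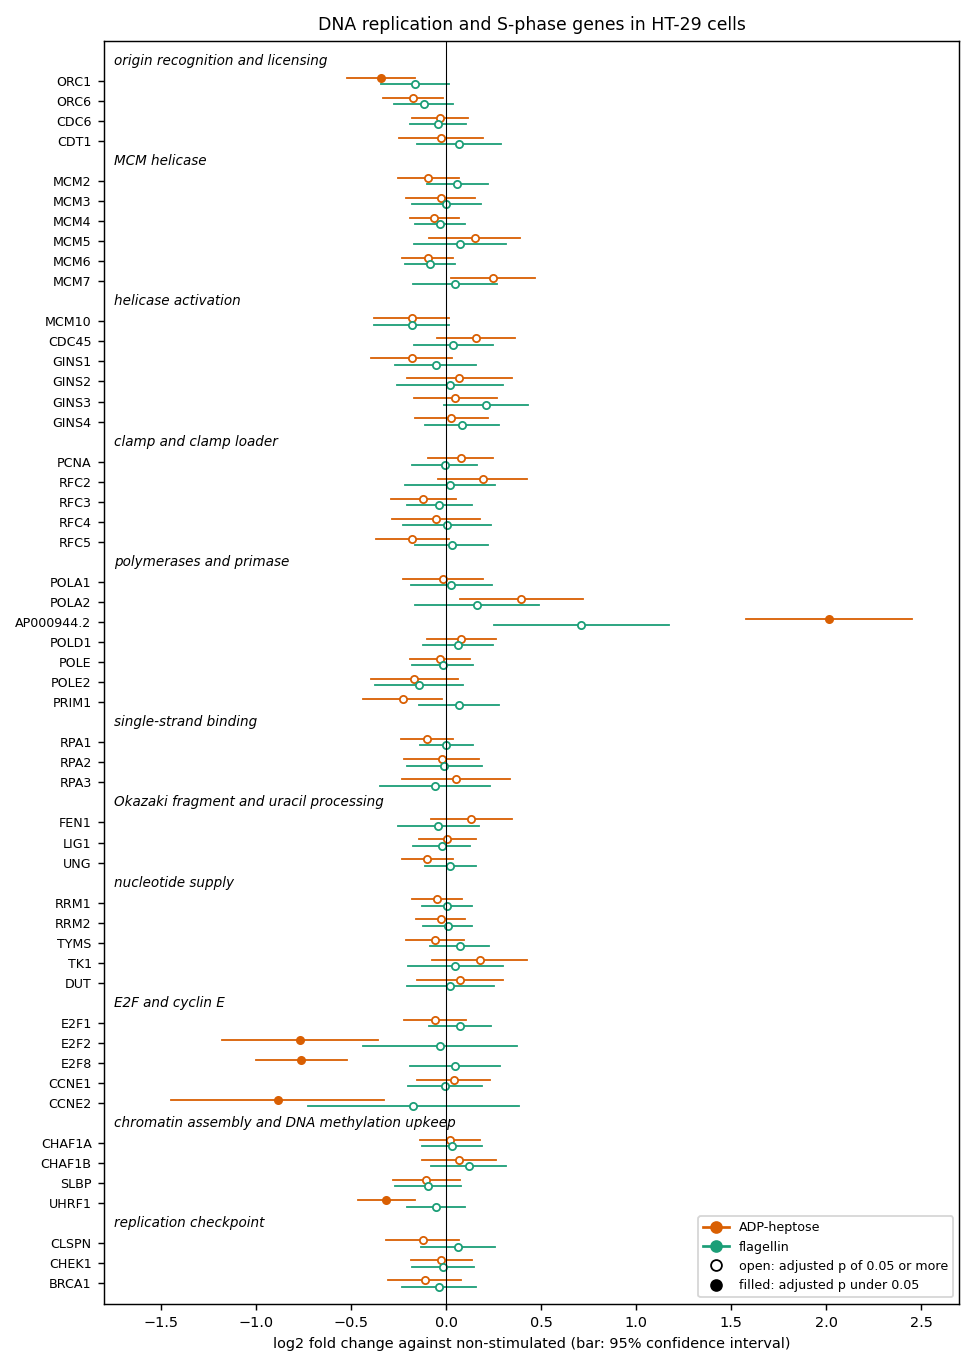
Log2 fold change against non-stimulated cells (x axis) for each of the 51 member identifiers, grouped by role, with ADP-heptose in orange and flagellin in green (n = 3 libraries per group). Points are fitted values, bars their 95% confidence intervals and filled points those past an adjusted p of 0.05; the filled points are E2F2, E2F8, CCNE2, ORC1 and UHRF1 on the lower side and AP000944.2 (2.02) on the higher side.

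The number of lower members depended on ADP-heptose replicate 3 and on the scaling. Without that library 8 members were lower (7.07% of all genes), namely ORC1, CDT1, MCM3, GINS1, E2F2, E2F8, SLBP and UHRF1. When each gene's transcript length and GC content entered the fit as offsets, 10 were lower (9.33% of all genes), with ORC6, CDT1, UNG, E2F1 and SLBP gained. In that fit 1463 genes in all were called higher and 1625 lower. With library totals in place of TMM, 13 members were lower (10.8% of all genes) with a median of −0.17. Gained with these totals were ORC6, MCM4, MCM6, MCM10, GINS1, PRIM1, UNG and SLBP. The totals moved the median of all genes to −0.13 and the calls from 1302 higher and 770 lower to 917 higher and 1886 lower. In each of these fits 1 member, AP000944.2, was higher, where 11.2%, 8.4% and 5.27% of all genes were. At an added threshold of 2-fold AP000944.2 was the only called member, where 2.89% of all genes were higher and 0.471% lower. By simple order, 14 of the 51 identifiers (27.5%) had all 3 ADP-heptose libraries below all 3 non-stimulated ones, where 14.7% of all genes did, and 3 (5.88%) had them all above, where 15.4% did.

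Flagellin called none of the 51. The fit counted 64 higher and 2 lower genes in all (0.368% and 0.0115% of those tested), and DESeq2 likewise called no member. In the edgeR fit 1 of the 51, AP000944.2, had an unadjusted p under 0.05, where 3.78% of all genes did. The median log2 fold change of the members was 0.00, with 29 identifiers above 0 and 22 below, and 49 intervals lay inside 1.5-fold. By order of the libraries, 5 identifiers had all flagellin values above and 4 had all below the non-stimulated ones (9.80% and 7.84%), where 7.66% and 5.19% of all genes did.

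Comparing the stimuli directly, ADP-heptose gave less E2F8, E2F2 and UHRF1 than flagellin did (3 of 51 or 5.88% of the members, where 2.76% of all genes were called lower), and more of AP000944.2 (1.96%, where 5.4% were called higher). At 2-fold AP000944.2 alone remained, where 2.06% of all genes were higher and 0.287% lower. The number of lower members was 6 without ADP-heptose replicate 3 (5.14% of all genes), where CDT1 (log2 difference −0.24, adjusted p 0.000695), GINS1 (−0.24, 0.0149) and E2F1 (−0.19, 0.00907) joined these 3. It was 7 with the length and GC offsets (6.45%) and 7 with library totals (6.11%). All 3 ADP-heptose libraries lay below all flagellin libraries for 12 identifiers and above them for 2 (23.5% and 3.92%), where 12.8% and 14.2% of all genes did. Both comparisons share the ADP-heptose libraries, and the comparisons with no stimulus share the non-stimulated ones.

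The 3 members that fell most belong to the E2F and cyclin E group, and the remaining 2 of that group, E2F1 and CCNE1, did not pass the test. E2F8 is an atypical E2F that represses E2F targets late in S phase (ENSG00000129173, chr11:19224063-19241620 on the minus strand of GRCh38 in GENCODE 29). Its normalised counts were 1110, 884 and 1042 in the non-stimulated libraries, 1008, 1124 and 1006 with flagellin, and 618, 645 and 524 with ADP-heptose. Every ADP-heptose library lay below the other 6. E2F8 fell by 41.1% with ADP-heptose (log2 fold change −0.76, SE 0.11, adjusted p 0.000488) and by 43.0% relative to flagellin (log2 difference −0.81, adjusted p 0.000402). It was the lower member with the most stable call, past the threshold in all 18 alternative fits of both comparisons, with a log2 fold change against non-stimulated cells of −0.90 to −0.68. Its difference between flagellin and non-stimulated cells was 0.05, with a 95% interval of −0.19 to 0.28.

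E2F2 is an activating E2F that drives entry into S phase (ENSG00000007968, chr1:23506430-23531220, minus strand). It gave 218, 250 and 276 normalised counts without stimulation, 245, 251 and 231 with flagellin, and 157, 177 and 98.7 with ADP-heptose. Every ADP-heptose library lay below the other 6, whose 2 groups overlapped, and ADP-heptose replicate 3 was the lowest of all. The fall with ADP-heptose was 41.4% (log2 fold change −0.77, SE 0.19, adjusted p 0.0188), and without ADP-heptose replicate 3 the log2 fold change was −0.56 (adjusted p 0.00591). The call was lost without non-stimulated replicate 2 (adjusted p 0.0614) or 3 (0.0896) and in the fit of only the 6 libraries compared (0.0637). Relative to flagellin E2F2 was lower by a log2 difference of −0.74 (adjusted p 0.0306), a call lost without ADP-heptose replicate 1 (0.0519), without any 1 flagellin library (0.0859 or more), without non-stimulated replicate 2 (0.0545) and with the 6 libraries alone (0.0815).

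CCNE2 encodes cyclin E2, a partner of the kinase CDK2 at the start of S phase (ENSG00000175305, chromosome 8). It had the fewest counts of the genes that fell. The non-stimulated libraries gave 94.9, 103 and 94.1 normalised counts, those with flagellin 70.3, 94.97 and 94.4, and those with ADP-heptose 70.8, 54.3 and 32.0. The ADP-heptose libraries lay below the non-stimulated ones but reached the lowest flagellin value. The fall of 46.0% (log2 fold change −0.89, SE 0.26) had an adjusted p of 0.0435 that rose above 0.05 when any 1 library other than ADP-heptose replicate 1 was left out (0.0558 to 0.126), in the fit of only the 6 libraries compared (0.0912) and with the replicate number as a block (0.0753). Without ADP-heptose replicate 3 the log2 fold change was −0.64 (adjusted p 0.0583). In GENCODE 29, 37.1% of the exonic bases of CCNE2 are shared with genes of the opposite strand, chiefly INTS8, whose log2 fold change was −0.18 (adjusted p 0.318). Whether the counting used strand is not given in the sources used here, so reads from these shared bases cannot be assigned to either gene with certainty.

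The other cyclin E gene and the main activating E2F stayed within 1.25-fold. CCNE1, which encodes cyclin E1, had a log2 fold change of 0.04 with ADP-heptose (95% interval −0.15 to 0.23). E2F1, the founding activator of the family, had one of −0.06 (−0.22 to 0.11, adjusted p 0.663), but of −0.27 (adjusted p 0.00302) with the length and GC offsets.

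**Figure D3:**
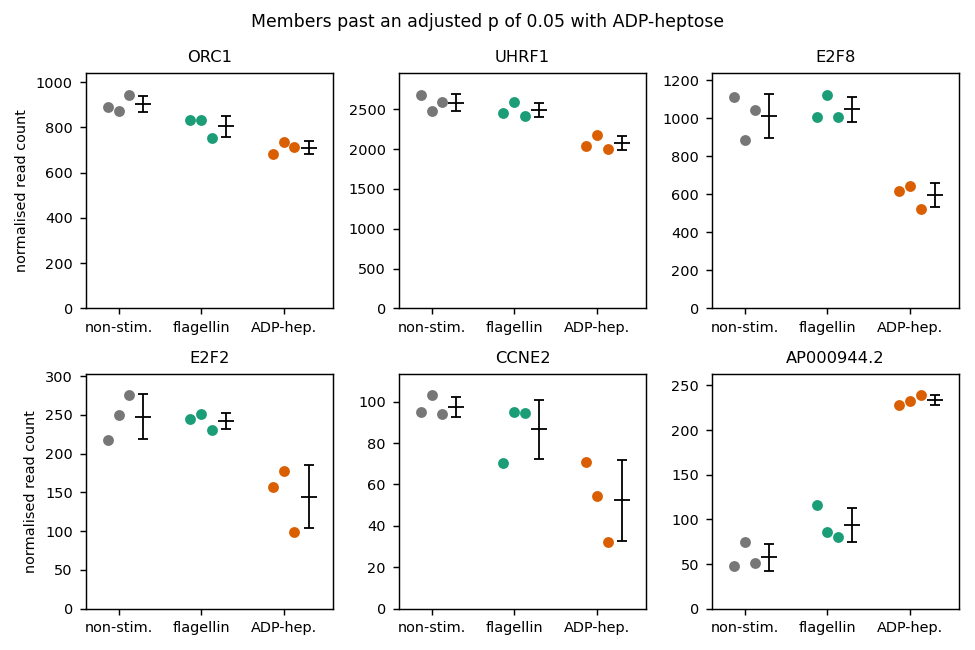
Normalised read counts (y axes from 0, 1 scale per gene) in each of the 9 libraries for the 6 identifiers past an adjusted p of 0.05 with ADP-heptose. Coloured points are libraries, in order of replicate number, and the black mark and bar the mean ± SD of 3 libraries. In AP000944.2 all ADP-heptose libraries lie at 228 to 239 and all others at 116 or below.

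In licensing, ORC1 fell and the other 3 members did not pass the test. ORC1 is the largest subunit of the origin recognition complex and the one whose level cycles with division (ENSG00000085840, chr1:52372829-52404459, minus strand). Its normalised counts were 892, 873 and 945 without stimulation, 831, 832 and 752 with flagellin, and 682, 736 and 714 with ADP-heptose. The ADP-heptose libraries were the lowest of the 9 and those with flagellin lay in between. The fall with ADP-heptose was 21.3% (log2 fold change −0.35, SE 0.08, adjusted p 0.0153). It lost its call without ADP-heptose replicate 1 (adjusted p 0.0569), non-stimulated replicate 1 (0.0518) or non-stimulated replicate 3 (0.0826). Flagellin and ADP-heptose differed by a log2 value of −0.18 that did not pass (adjusted p 0.234), and flagellin against no stimulus gave −0.17 (adjusted p 1). The log2 fold changes with ADP-heptose were −0.18 for ORC6, −0.04 for CDC6, which loads the helicase, and −0.03 for CDT1, its loading partner. CDT1 held 3693 and 3717 normalised counts in ADP-heptose replicates 1 and 2 but 4942 in replicate 3, against 4067 to 4277 without stimulation. Leaving replicate 3 out turned its value to −0.18 (adjusted p 0.0100).

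Among the genes of chromatin assembly and DNA methylation upkeep UHRF1 fell. It reads hemimethylated DNA behind the fork and recruits DNMT1 (ENSG00000276043, chr19:4903080-4962154, plus strand). The counts were 2685, 2482 and 2589 without stimulation, 2458, 2587 and 2422 with flagellin, and 2041, 2181 and 2008 with ADP-heptose, so that every ADP-heptose library lay below the other 6. UHRF1 fell by 19.7% (log2 fold change −0.32, SE 0.07, adjusted p 0.0101) and lost this call only without non-stimulated replicate 1 (0.0608) among the 18 alternatives. The difference from flagellin was smaller (−0.26, adjusted p 0.0375) and was lost without any 1 of the flagellin or non-stimulated libraries (0.0580 to 0.195), without ADP-heptose replicate 1 (0.110), without the filter on low counts (0.0904) and with the 6 libraries alone (0.111). The chromatin assembly factor subunits CHAF1A and CHAF1B had log2 fold changes of 0.02 and 0.06. The histone mRNA binding protein SLBP had one of −0.10, and of −0.19 (adjusted p 0.00936) without ADP-heptose replicate 3.

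Promoter sequences are shown for the genes that fell, because E2F factors bind near the start of many replication genes. Windows from 250 bases before to 50 bases after a start were taken from RefSeq (GRCh38.p14), where 43 of the 50 symbols matched, with 60 windows. Those not matched were MCM4, MCM5, GINS4, RPA2, RPA3, E2F8 and CCNE2. The E2F words TTTCCCGC, TTTCGCGC, TTTGCCGC and TTTGGCGC were searched on both strands and could overlap. Without their first T, as words of 7 letters, they occurred in 38 of the 60 member windows (63.3%) and in 12.97% of all 35,116 windows. All 8 letters occurred in 24 (40.0%) and in 3.31%. By gene, 35 of 43 had at least 1 word of 7 letters, and all 3 matched genes that fell were among them. So was MCM6, shown last, which had more words than any other member (4, in overlapping pairs on opposite strands) and a log2 fold change of −0.10 with ADP-heptose (adjusted p 0.339). A match describes letters only, and a part of E2F factors in any of the changes was not tested. Words of 7 letters are in capitals, and each window is the one with the most words of its gene, read 5′ to 3′ on the gene's strand: chr1:23531184-23531483 for E2F2 (minus, 1 word), chr1:52404374-52404673 for ORC1 (minus, 2 overlapping words), chr19:4909251-4909550 for UHRF1 (plus, 2 words) and chr2:135876394-135876693 for MCM6 (minus).
E2F2: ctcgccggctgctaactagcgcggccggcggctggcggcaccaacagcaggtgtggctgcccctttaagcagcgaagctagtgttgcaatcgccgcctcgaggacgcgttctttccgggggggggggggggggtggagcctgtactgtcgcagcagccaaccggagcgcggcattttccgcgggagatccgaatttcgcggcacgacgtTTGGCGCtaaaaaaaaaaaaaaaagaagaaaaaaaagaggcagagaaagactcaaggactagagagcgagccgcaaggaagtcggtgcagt
ORC1: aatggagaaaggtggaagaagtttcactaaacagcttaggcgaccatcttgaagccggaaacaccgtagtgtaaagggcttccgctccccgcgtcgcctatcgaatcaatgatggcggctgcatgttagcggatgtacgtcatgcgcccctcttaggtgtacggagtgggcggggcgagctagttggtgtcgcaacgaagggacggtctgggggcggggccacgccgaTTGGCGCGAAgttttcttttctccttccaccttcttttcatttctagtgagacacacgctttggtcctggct
UHRF1: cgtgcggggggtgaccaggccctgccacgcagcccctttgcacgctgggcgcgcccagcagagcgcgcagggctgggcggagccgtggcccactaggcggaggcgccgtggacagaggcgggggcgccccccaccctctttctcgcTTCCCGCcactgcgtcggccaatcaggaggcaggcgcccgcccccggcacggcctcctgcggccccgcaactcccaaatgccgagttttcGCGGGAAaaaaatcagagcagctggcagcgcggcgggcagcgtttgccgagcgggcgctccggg
MCM6: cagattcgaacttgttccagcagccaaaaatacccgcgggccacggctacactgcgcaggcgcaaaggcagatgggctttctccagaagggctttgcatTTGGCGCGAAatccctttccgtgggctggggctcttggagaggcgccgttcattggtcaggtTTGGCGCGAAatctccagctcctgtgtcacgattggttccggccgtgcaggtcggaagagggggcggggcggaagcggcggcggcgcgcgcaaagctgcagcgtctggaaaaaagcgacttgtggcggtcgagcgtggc

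The called rise under the symbol POLA2 was in the counts of its second identifier, which is annotated as a read-through transcript. POLA2 encodes the second subunit of DNA polymerase alpha, which starts each new strand together with primase. Its symbol stood beside ENSG00000014138, the gene itself (chr11:65261762-65305589, plus strand), and ENSG00000285816, named AP000944.2 in GENCODE 29 (chr11:65261928-65326543, plus strand). AP000944.2 has 1 annotated transcript of 20 exons, classed as a target of nonsense-mediated decay. Its first 17 exons lie within POLA2 exons and the other 3 lie downstream, where exon 19 runs over exons of CDC42EP2 (chr11:65314818-65322429, plus strand), which encodes an effector of the GTPase CDC42. Of its 4256 bases, 2012 are shared with POLA2, 1886 with CDC42EP2 and 358 with neither. The join between the genes is shown because it sets this transcript apart from POLA2 mRNA, with the last 60 bases of exon 17 (chr11:65295931-65295990) in lower case and exon 18 (chr11:65318914-65318983) in capitals. Both stretches are annotated as coding in this transcript.
AP000944.2 junction: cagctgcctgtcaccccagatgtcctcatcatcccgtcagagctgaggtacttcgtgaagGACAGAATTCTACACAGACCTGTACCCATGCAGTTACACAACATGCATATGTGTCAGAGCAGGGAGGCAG

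AP000944.2 gave 47.4, 75.2 and 50.8 normalised counts without stimulation, 116, 85.8 and 80.4 with flagellin, and 228, 233 and 239 with ADP-heptose. The 3 groups did not overlap, with flagellin in the middle. The rise with ADP-heptose was 4.04-fold (95% interval 2.99 to 5.47, log2 fold change 2.02, adjusted p 2.3e-05), and past the threshold in all 18 alternative fits (1.88 to 2.25). With flagellin it was 1.64-fold (1.19 to 2.25), with an unadjusted p of 0.00581 and an adjusted p of 0.579 that ranged from 0.157 to 1 over the alternatives, so it did not pass. ADP-heptose exceeded flagellin by 2.47-fold (1.85 to 3.30, adjusted p 0.000762).

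POLA2 itself had 637, 652 and 590 normalised counts without stimulation, 741, 760 and 601 with flagellin, and 749, 684 and 1040 with ADP-heptose. The ADP-heptose group lay above the non-stimulated one by a log2 value of 0.39 (95% interval 0.07 to 0.72, adjusted p 0.117), which fell to 0.20 (adjusted p 0.186) without ADP-heptose replicate 3, its highest library. It passed without the filter on low counts (adjusted p 0.0138) or without ADP-heptose replicate 2 (0.0411). CDC42EP2 was counted at 0 to 7 reads per non-stimulated library, 1 to 9 with flagellin and 13 to 16 with ADP-heptose, and its log2 fold change of 1.43 had an interval of −0.30 to 3.16 (adjusted p 0.289). How reads in the shared exons were assigned is not given in the sources used here, so the counts of the 3 identifiers are not independent measures of 3 transcripts. Reads across the join were not analysed here, and 91.6% of AP000944.2 bases are shared with other genes, so a rise of the read-through transcript itself was not tested.

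The helicase, the clamp and the polymerases otherwise stayed close to their non-stimulated levels. None of the 6 subunits MCM2 to MCM7 passed the test, and their log2 fold changes with ADP-heptose ran from −0.10 to 0.25. The highest was that of MCM7, the most abundant, with 22,877, 23,310 and 22,157 normalised counts without stimulation, 24,590, 23,012 and 22,968 with flagellin, and 24,572, 24,299 and 32,137 with ADP-heptose. Its ADP-heptose replicate 3 stood far above the other 8 libraries. The log2 fold change of 0.25 (adjusted p 0.153) was 0.11 without that library, and passed only without the filter on low counts (adjusted p 0.0414). MCM3 had −0.03, and −0.13 (adjusted p 0.0463) without replicate 3.

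The 6 members of helicase activation ran from −0.18 to 0.16 with ADP-heptose and included the 2 largest flagellin values after AP000944.2. GINS3, a subunit of the GINS complex, had 428, 456 and 403 normalised counts without stimulation, 480, 485 and 523 with flagellin, and 477, 407 and 446 with ADP-heptose. Its flagellin libraries lay above every non-stimulated one (log2 fold change 0.21, 95% interval −0.01 to 0.43, adjusted p 1). MCM10, which helps to open the loaded helicase, had 1117, 1100 and 983 without stimulation, 974, 997 and 847 with flagellin, and 975, 891 and 955 with ADP-heptose. Both stimuli gave a log2 fold change of −0.18, neither past the threshold (adjusted p 0.232 with ADP-heptose and 1 with flagellin). GINS1 had −0.18 with ADP-heptose (adjusted p 0.273), and −0.30 (0.00143) without ADP-heptose replicate 3.

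The clamp PCNA and the loader subunits RFC2 to RFC5 ran from −0.18 to 0.19. PCNA had 7444, 8119 and 7271 normalised counts without stimulation, 7529, 7560 and 7614 with flagellin, and 7449, 7701 and 8918 with ADP-heptose. The groups overlapped, and the log2 fold change with ADP-heptose was 0.08 (95% interval −0.10 to 0.25). Of the polymerase and primase genes other than AP000944.2, PRIM1, the catalytic primase subunit, was lowest with −0.23 (adjusted p 0.158). Of its exonic bases 21.6% are shared with other genes. It differed from flagellin by −0.30 (adjusted p 0.0886) and passed in that comparison with library totals (0.0235), with the length and GC offsets (0.0344) and with these offsets and the replicate block. The catalytic subunits POLA1, POLD1 and POLE had −0.02, 0.08 and −0.03.

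RPA1, the large subunit of the complex that coats single-stranded DNA, had 4450, 4399 and 4503 normalised counts without stimulation, 4311, 4513 and 4531 with flagellin, and 4247, 4268 and 3929 with ADP-heptose. All its ADP-heptose libraries were lower than the others, by a log2 value of −0.10 against non-stimulated cells (adjusted p 0.344). RPA2 and RPA3 had −0.03 and 0.05. FEN1, the nuclease that trims Okazaki fragments, had 6260, 6963 and 6565 without stimulation, 6942, 6152 and 6117 with flagellin, and 6650, 6640 and 8392 with ADP-heptose. Only replicate 3 left the range of the other groups (log2 fold change 0.13, adjusted p 0.423). The ligase LIG1 had 0.01 and the uracil glycosylase UNG −0.10.

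None of the 5 genes of nucleotide supply passed the test. The ribonucleotide reductase subunits RRM1 and RRM2 had log2 fold changes with ADP-heptose of −0.05 and −0.03, thymidylate synthase (TYMS) −0.06 and the dUTPase DUT 0.07. TK1, the thymidine kinase of S phase, had 12,166, 12,660 and 11,888 normalised counts without stimulation, 13,400, 12,363 and 12,180 with flagellin, and 12,370, 12,099 and 16,991 with ADP-heptose. Its replicates 1 and 2 lay inside the non-stimulated range and replicate 3 far above it (log2 fold change 0.18, 95% interval −0.07 to 0.42). Of TYMS exonic bases 46.6% are shared with genes of the opposite strand, so its count may include their reads.

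The checkpoint members did not pass either. CHEK1, the kinase that slows origin firing under replication stress, had 2851, 3235 and 2867 normalised counts without stimulation, 3070, 2920 and 2869 with flagellin, and 2914, 2802 and 3078 with ADP-heptose. These overlapped throughout (log2 fold change −0.03, 95% interval −0.19 to 0.14). Its mediator CLSPN had −0.12 and the repair gene BRCA1 −0.11.

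Beside the members, 76 other genes of the pathway were listed by role, with earlier results of these data known, and 75 passed the filter. With ADP-heptose 7 of them were lower (9.33%, where 4.42% of all genes were) and 1 was higher (1.33%, where 7.48% were). With flagellin edgeR called none of them, and 1 had an unadjusted p under 0.05, where 3.78% of all genes did. Their median log2 fold change with ADP-heptose was −0.10. The largest was CDKN1A, which encodes the CDK inhibitor p21. It had 2510, 2144 and 2493 normalised counts without stimulation, 3229, 2766 and 2912 with flagellin, and 15,089, 15,357 and 16,555 with ADP-heptose. The rise was 6.57-fold with ADP-heptose (95% interval 5.75 to 7.52, adjusted p 8.7e-10). The flagellin value, 1.25-fold, did not pass (adjusted p 0.398) but did so in the fit of only the 6 libraries compared (0.00344), which holds no ADP-heptose library, and without ADP-heptose replicate 3 (0.000867).

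Among the 7 called lower, the largest falls were in TICRR, the partner of TOPBP1 that lets CDC45 join the helicase, CDKN1B, which encodes the CDK inhibitor p27, and SKP2, the ubiquitin ligase subunit that marks p27 for degradation. TICRR had 2271, 1924 and 2114 normalised counts without stimulation, 1984, 1902 and 2151 with flagellin, and 1451, 1407 and 1265 with ADP-heptose, a fall of 34.6% (log2 fold change −0.61, adjusted p 0.000481). CDKN1B and SKP2 fell by 22.4% each (log2 fold changes −0.37 and −0.37, adjusted p 0.00217 and 0.00247). Cyclin A2 (CCNA2), which takes over from cyclin E within S phase, fell by 21.7% (log2 fold change −0.35, adjusted p 0.00309). All 4 were called in all 18 alternative fits of this comparison.

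Among the remaining regulators, cyclin D1 (CCND1), which starts the path to S phase, had a log2 fold change of −0.02 (95% interval −0.18 to 0.14). E2F3, an activating E2F, had 0.14 (adjusted p 0.410), with 2142 and 2084 normalised counts in ADP-heptose replicates 1 and 2 and 1609 in replicate 3 against 1689 to 1843 without stimulation. Without replicate 3 it passed at 0.27 (adjusted p 0.00166). E2F7, the other repressing E2F beside E2F8, gave 1105 and 1096 in replicates 1 and 2 and 596 in replicate 3 against 890 to 1013 without stimulation, and a log2 fold change of −0.03. The values of both genes thus rested on whether replicate 3 was included.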

How the data were processed

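Poly(A) RNA of 9 HT-29 libraries was sequenced by the authors as paired reads, aligned with HISAT2 and counted with featureCounts, per the labels. The deposited values are raw read counts per gene, 1 column per library. Versions, genome build, annotation, strand setting and the handling of shared reads are not given in the sources used here. Of 62,972 lines, 62,710 distinct identifiers were kept, since 232 were listed more than once with identical counts.

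All 9 libraries entered 1 model in edgeR 4.0.16 (R 4.3.3), with TMM scaling, the filterByExpr filter, the robust quasi-likelihood F test, Benjamini-Hochberg adjustment and calls at 0.05; the code was tested on simulated data. Fold changes, intervals and p come from this fit unless another is named. Normalised counts are counts divided by effective library size, times the geometric mean of these sizes. P-values set the difference between groups against the spread between libraries within groups, estimated over all 9 libraries and moderated across genes. Alternatives were DESeq2 1.42.0, its size factors, library totals, no filter, a mean of at least 10 counts, a 2-fold threshold, 6 libraries, the replicate number as a block, length and GC offsets (splines with 4 degrees of freedom) alone or with that block, and each library left out.

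Members and lists were chosen with earlier results of these data known. Library values are given for members past the threshold, for the 3 largest changes of each comparison and, in roles without such a member, for the most abundant one. Other pathway genes are named if among the 3 largest called in a direction with ADP-heptose, or as preset regulators. Positions and transcript lengths come from GENCODE 29, promoters from RefSeq, and figures from matplotlib 3.10.9.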

Additional observations from a re-analysis of the deposited data

How the results depend on the processing

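The fits of DESeq2, DESeq2's size factors and a mean of at least 10 counts left the number of called members within 1.5 times in every comparison, and no alternative called a member with flagellin. For ADP-heptose against non-stimulated cells, 1 higher member became 3 without the filter on low counts, and 1 to 2 with a library left out. Over all genes, 1302 of 17,412 were called higher in the main fit and 1757 of 33,281 without the filter. The fit that called 2 members higher, without ADP-heptose replicate 2, called 1237 of 17,937 genes higher. The 5 lower members became 13 with library totals, 10 with the length and GC offsets, 8 with these and the replicate block, 3 with the 6 libraries compared, 0 at 2-fold, and 2 to 8 with a library left out: 8 without ADP-heptose replicate 3, 2 without non-stimulated replicate 1 or 3, and 3 without non-stimulated replicate 2. The calls over all genes moved too: against 770 lower genes, these fits called 1886, 1625, 1373 and 433, the 2-fold threshold 82, and the fits without ADP-heptose replicate 3 or non-stimulated replicate 1, 2 or 3 called 1270, 407, 490 and 392. The median of −0.03 became −0.17 with library totals, −0.088 with the offsets and −0.0875 with offsets and block. Against flagellin, the 3 lower members became 7 with library totals, 7 with the offsets, 7 with offsets and block, 1 with the 6 libraries compared, 1 with the replicate block, 0 at 2-fold, and 1 to 6 with a library left out (6 without ADP-heptose replicate 3, and 1 without ADP-heptose replicate 1, non-stimulated replicate 2 or any flagellin library), while all genes called lower went from 481 to 1064, 1123, 919, 269, 327, 50 and 233 to 923. The median of −0.03 became −0.15 with library totals. E2F7 turned from a log2 difference of −0.03 to 0.22 (adjusted p 0.0490) without ADP-heptose replicate 3. The smaller fits also hold fewer libraries, and the cause of these changes was not tested. The replicate numbers are not stated to pair libraries, and deviations of same-numbered libraries from their group means correlated between −0.45 and 0.29. Deviations of ADP-heptose replicate 3 correlated at 0.50 with those of non-stimulated replicate 2 and at 0.34 with those of flagellin replicate 1. With the other non-stimulated and flagellin libraries they correlated between −0.32 and −0.15. With the replicate number as a block CCNE2 lost its call against non-stimulated cells (adjusted p 0.0753) and E2F2 and UHRF1 theirs against flagellin (0.0551 and 0.0896), leaving 4 and 1 lower members. Low counts limit the precision of CCNE2, AP000944.2 and CDC42EP2.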

Other observations

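Of the listed pathway genes, RNASEH2A and CHTF8 were counted near the floor in all libraries. RNASEH2A, the catalytic subunit of the ribonuclease H2 that removes ribonucleotides from DNA, had 0.833 to 16.4 normalised counts, whereas its partners RNASEH2B and RNASEH2C had 1912 or more. Of RNASEH2A exonic bases 30.8% are shared with THSD8 on the same strand. CHTF8, a subunit of an alternative clamp loader, had 9.15 to 21.7, whereas its partners CHTF18 and DSCC1 had 1850 or more. Both were chosen after their values were seen.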
